A study of Mus musculus with 4 samples.

Results

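The genes described here encode the protein subunits of the cytosolic ribosome. They were chosen by symbol alone: Rpsa, the stalk genes Rplp0, Rplp1 and Rplp2, and every symbol that is Rpl or Rps followed by a number, with or without a trailing letter. The rule found 77 of the 32285 genes in the count matrices, 46 for the large subunit and 31 for the small one. Processed copies, relatives such as Rps27l, and subunits with other names such as Fau were left outside it and are given separately.

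Each ribosome joins one copy of most of these proteins to ribosomal RNA, and cells make the subunits together because spare ones are degraded. Their messenger RNAs are among the most abundant in any cell and begin with a run of pyrimidines, the TOP motif, through which the kinase mTORC1 and the RNA-binding protein LARP1 set how much of the message is translated. In immune cells the share of messages spent on ribosomal proteins is known to be high in resting lymphocytes and low in mature neutrophils.

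The data are droplet RNA counts of immune cells of B6 mice, each bearing BeCon, the model of ovarian cancer of this study, and given either YKL-05-099 or vehicle. The labels do not say more of BeCon. YKL-05-099 is a small molecule that inhibits the salt-inducible kinases. Immune cells had been sorted as viable CD45+ MHCI+ cells, and 1 hashtag antibody marked each mouse and tissue. One library held ascites of 4 vehicle and 4 treated mice, and the other held spleen and blood of 3 vehicle mice (numbers 1 to 3) and 3 treated mice (numbers 2 to 4). Dose, duration, sex and age of the mice are not given in the sources used here, and no tumour-free or untreated mice were analysed here.

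The ascites matrix held 134034611 UMIs (unique molecular identifiers, each a counted transcript) in 13688 barcodes, and the spleen and blood matrix 92064806 in 14792. After filtering, 6419 and 6741 cells were assigned to 1 mouse, of which 5260 and 6116 met the marker rule of 1 class. The assigned cells gave 5941297 to 10808239 UMIs per mouse in ascites, 4927192 to 6293753 in spleen and 1949284 to 3119734 in blood. The libraries shared 10 barcodes of assigned cells. Long noncoding genes Gm42418 and Gm26917, which collect ribosomal RNA reads, took 9.50% to 13.1% of UMIs in the mean of ascites classes against 5.33% to 6.45% in spleen and blood classes. Tissue and library cannot be told apart between ascites and the rest, so levels are compared within a library. Transcripts of other cell types were found in gated cells: macrophage markers summed to 2365 to 3869 CPM (UMIs of a gene scaled to the same total in each mouse and class) in ascites B cells of vehicle mice, with 7 of 7 markers detected.

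Start sites are shown first because the pyrimidine run is the feature these genes are known to share. RefSeq promoter sequences (build GRCm38.p6) were at hand for 57 of the 77 genes. A C at the annotated start followed by at least 4 bases that are each C or T, on the transcribed strand, stood in 13 of the 57, or 22.8%, against 3.01% of 27025 genes in the same table. With the start moved by up to 5 bases either way, the shares were 47.4% and 21.2%. Below are windows of 15 bases before and 15 from the start for 6 genes that recur in the results, with the pyrimidine run from the start in capitals. Rps27 lies at chr3:90213634-90213663 (minus strand), Rpl38 at chr11:114668565-114668594 (plus), Rps6 at chr4:86857353-86857382 (minus), Rps18 at chr17:33955651-33955680 (minus), Rpl14 at chr9:120571502-120571531 (plus) and Rps10 at chr17:27635230-27635259 (minus).
Rps27: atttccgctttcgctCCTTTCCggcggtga
Rpl38: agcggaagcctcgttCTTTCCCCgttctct
Rps6: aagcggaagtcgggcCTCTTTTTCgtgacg
Rps18: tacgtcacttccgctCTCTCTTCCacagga
Rpl14: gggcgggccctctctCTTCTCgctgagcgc
Rps10: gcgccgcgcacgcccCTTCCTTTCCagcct
The runs were 6 to 10 bases long in these windows. A match is a description of the letters at an annotated start, which may differ from the start used in these cells.

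The share of all UMIs that came from the 77 genes depended far more on cell class than on treatment. In ascites of vehicle mice it was lowest in neutrophils, at 4.42% ± 0.75 (SD, n = 4), and 12.3% ± 0.25 in macrophages. Classical monocytes stood at 17.3% ± 0.94, mature dendritic cells at 18.7% ± 1.6 (n = 3), cDC2 at 21.7% ± 0.74 and cDC1 at 22.5% ± 1.6. B cells reached 22.4% ± 0.33 and T cells 24.8% ± 0.60. Mice overlapped between classical monocytes and mature dendritic cells, among cDC2, B cells and cDC1, and between cDC1 and T cells. Neutrophils and macrophages stood clear of every other class.

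T cells were also above B cells in spleen and blood. Splenic plasma cells were at 16.2% and 17.1% in the 2 vehicle mice with at least 20 such cells, blood non-classical monocytes at 15.1% to 18.9% and NK cells at 21.9% ± 0.81 (SD, n = 3). Blood B cells held 30.9% ± 0.30 and splenic B cells 36.9% ± 0.42. T cells were highest, with 38.9% ± 0.62 in spleen and 43.9% ± 0.56 in blood. Within splenic T cells, CD8 cells lay above CD4 cells in each vehicle mouse, at 42.5% to 43.3% against 30.8% to 35.3%. Splenic CD4 T cells thus lay below splenic B cells, which ran from 36.4% to 37.2%.

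**Figure D1:**
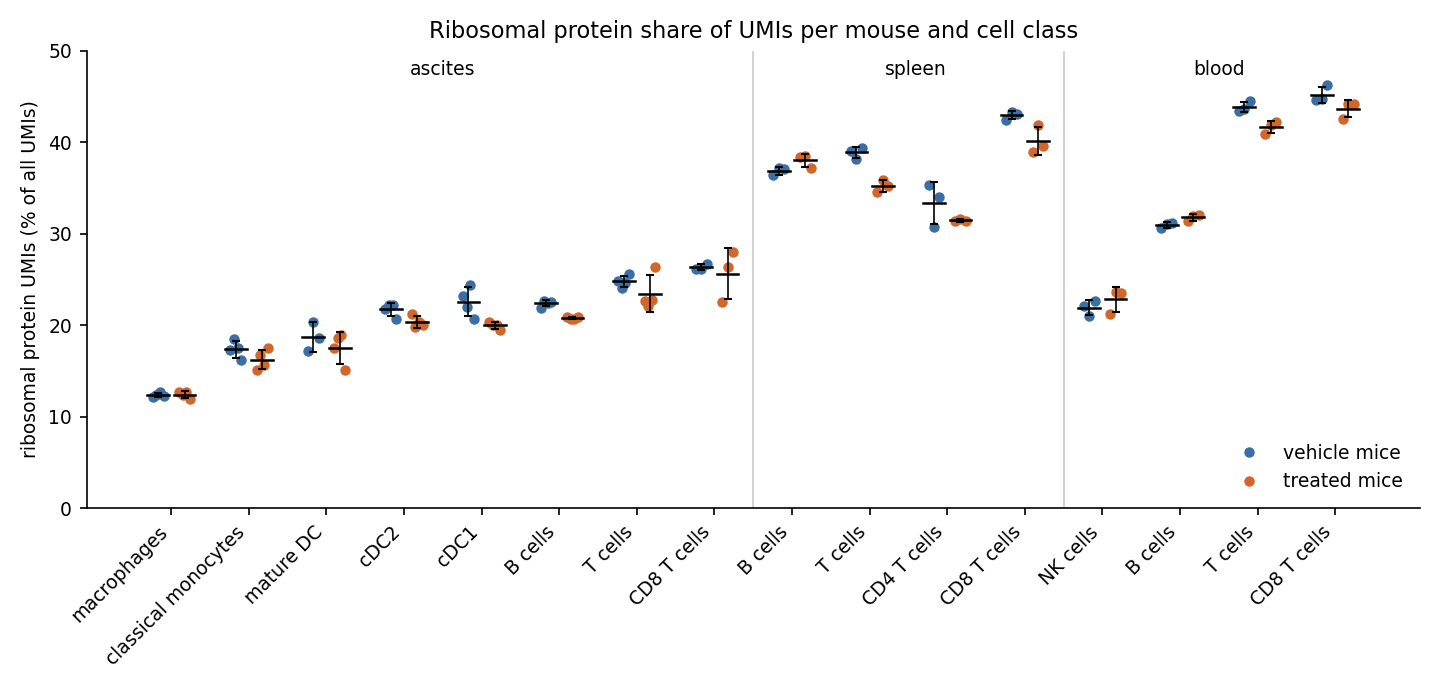
Percentage of UMIs from the 77 ribosomal protein genes in each cell class (x axis) for each vehicle (blue) and treated (orange) mouse, with the mean as a black line and the SD as an error bar. Shares ran from about 12% in macrophages to over 40% in blood T cells, and the arms were separate in splenic and blood T cells, in ascites, splenic and blood B cells, in cDC1 and in CD8 T cells of spleen and blood.

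Classes also differed in which ribosomal protein messages made up the pool. Over 7 ascites classes of vehicle mice (neutrophils and the CD8 subset left out) the gene with the widest range was Rps27, a zinc-finger protein of the small subunit, with 0.962% ± 0.045 of the ribosomal protein UMIs in macrophages and 2.57% ± 0.13 in B cells (SD, n = 4). Rpl10, which completes the large subunit late in its assembly, took 0.370% ± 0.040 in T cells and 0.462% ± 0.068 in B cells, but 0.849% ± 0.028 in macrophages and 0.982% ± 0.065 in cDC1. B and T cells of every mouse were below every myeloid class in Rpl10. In Rps27, B cells of every mouse lay above all myeloid classes, and T cells lay above all but mature dendritic cells. In spleen and blood the same 2 genes took 2.38% to 3.08% and 0.616% to 1.05% in the mean of each class. Near-identical copies of both genes are listed too and can share their reads, so these values are uncertain.

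Mature dendritic cells stood apart by Rps19 and Rpsa. Rps19, whose human counterpart is mutated in Diamond-Blackfan anaemia, made up 2.62% ± 0.076 (SD, n = 3) of the pool there against 1.37% ± 0.051 in cDC1 (n = 4). Rpsa, a small-subunit protein that was also described as a laminin receptor, made up 2.63% ± 0.17 against 1.94% ± 0.081. Rpl12 of the stalk base took 1.57% ± 0.098 in T cells and 0.806% ± 0.016 in classical monocytes. Rpl27 was the most even gene, between 0.873% and 0.971% in the mean of each of the 7 classes. UMIs of a 3′ library do not grow with transcript length, and by this count Rps29 had the most UMIs in every tissue. Rpl4 had the fewest in ascites and blood, and Rpl31 in spleen.

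**Figure D2:**
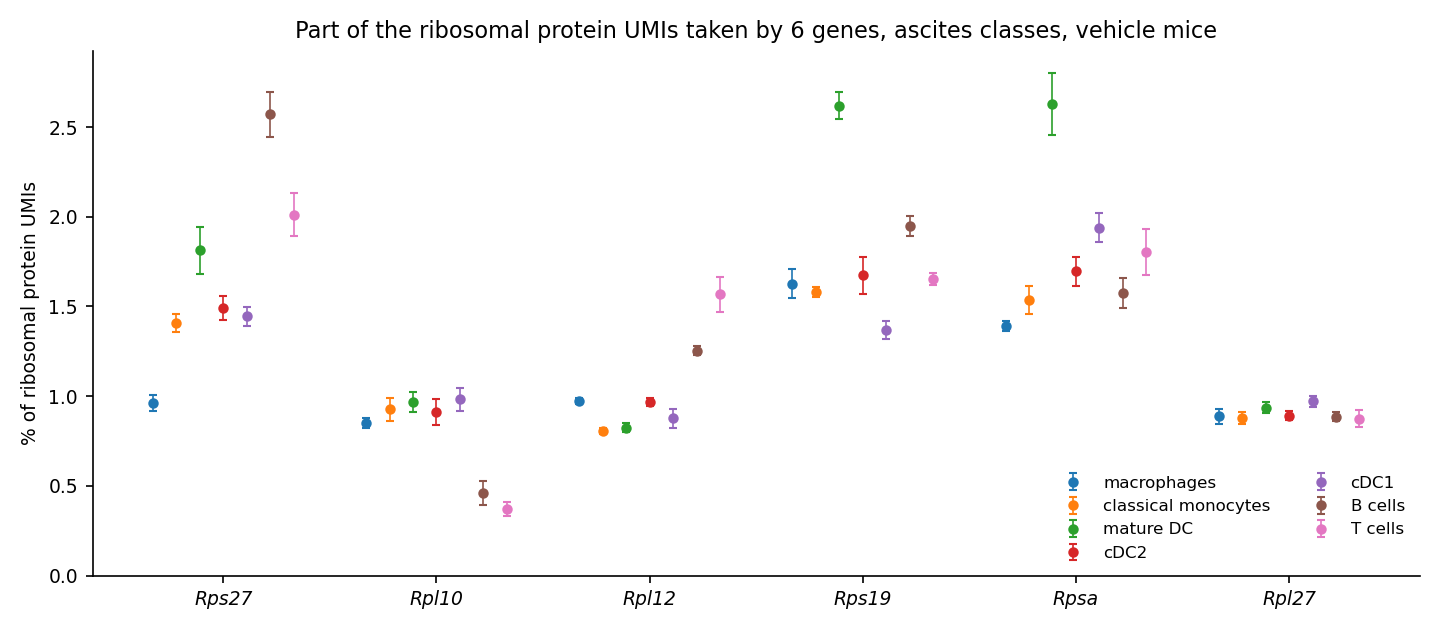
Percentage of the ribosomal protein UMIs (y axis) taken by Rps27, Rpl10, Rpl12, Rps19, Rpsa and Rpl27 in ascites classes of vehicle mice, with the mean and SD over 4 mice (3 for mature dendritic cells). Rps27 was lowest in macrophages and highest in B cells, Rpl10 was low in B and T cells, Rps19 and Rpsa were highest in mature dendritic cells, and Rpl27 was the most even. Values of Rps27 and Rpl10 are uncertain, since near-identical copies can share their reads.

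Treatment was compared with vehicle in 16 classes, with UMIs summed per mouse and class and edgeR fitted to all genes. A gene is said to have risen or fallen where its Benjamini-Hochberg adjusted p over all genes of the class was below 0.05. Counts at an unadjusted p below 0.05 are descriptions. For spleen and blood classes the share of all genes at that level is not given here. Those counts were therefore not set against other genes, and no excess or lack is read from them. All 77 genes passed the filter on low counts in all 16 classes. Of these, 73 changed in at least 1 class, and 22 rose in one class and fell in another. Of the 1612 genes that were tested in all 16 classes, these included, 52.5% changed in at least 1 class and 6.33% in opposite directions, against 94.8% and 28.6% of the 77. The files also list near-identical copies of Rpl9, Rpl10, Rpl36, Rpl36a and Rps27, with which reads can be shared, so the values of these 5 genes are uncertain.

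Splenic T cells gave the largest count. Ribosomal protein messages fell in 52 of 77 cases and rose in 0, where 1.58% of the 7841 genes tested fell and 1.02% rose. The median log2 change over the 77 genes was -0.22, against 0.00 over all genes tested, and no gene lay above 0. Their share of UMIs was 39.1%, 38.2% and 39.4% in vehicle mice 1 to 3 and 34.5%, 35.9% and 35.2% in treated mice 2 to 4, so that the arms did not overlap. Per cell, ribosomal protein UMIs went from 2613 ± 84.8 to 2381 ± 49.3 (SD, n = 3) while all other UMIs went from 4105 ± 32.8 to 4383 ± 188.

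Both subunits were affected, with 28 of 46 large-subunit and 24 of 31 small-subunit genes lower. Rpl21, a large-subunit protein, was counted at 4581, 4495 and 4438 CPM in vehicle mice and 3776, 3859 and 3592 in treated mice. The treated spleens were all lower, and the log2 change was -0.34 ± 0.052 (SE, adjusted p = 3.23e-06, edgeR). Rpl12 stood at 7075, 6853 and 7050 in vehicle mice and 5889, 5931 and 5813 in treated mice, a log2 change of -0.33 ± 0.049. Rpl36a, Rpl8 and Rps28 fell by 0.34, 0.32 and 0.31 on the log2 scale. Rps6, the subunit that the S6 kinases phosphorylate, fell by 0.30 (SE 0.054).

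The make-up of splenic T cells also differed between arms. CD8 cells were 46.7%, 46.7% and 50.5% of T cells in vehicle mice and 33.3%, 37.6% and 38.1% in treated mice. T cells with neither CD4 nor CD8 transcripts detected were 34.0%, 30.4% and 34.2% in vehicle mice and 41.1%, 41.2% and 41.4% in treated mice. The cycling genes Mki67, Top2a and Birc5 (3 of 3 detected) summed to 26.9 to 64.1 CPM in vehicle mice and 90.4 to 125.6 in treated mice. Erythroid markers (5 of 5 detected) summed to 222 to 293 CPM in vehicle mice and 147 to 192 in treated mice, and the part of these differences in the fall was not tested. Within CD8 T cells alone the share of UMIs was 42.5%, 43.3% and 43.1% in vehicle mice and 38.9%, 41.8% and 39.6% in treated mice, beside mitochondrial UMIs of 4.82% to 4.95% and 4.98% to 5.41%. There only Rpl21 fell (log2 change -0.31 ± 0.080, adjusted p = 0.0334), where 0.407% of genes fell, while 40 of the 77 were lower at an unadjusted p below 0.05 and the median was -0.17. Rpl21 lost its call when any 1 mouse other than treated mouse 3 was left out, and 49 genes fell without treated mouse 3. Without vehicle mouse 1 or vehicle mouse 3 the count in all T cells was 29 or 32.

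In splenic CD4 T cells the median was -0.11, and 0 of 77 genes changed, where 0.128% of genes fell and 0.0961% rose (3 of the 77 had an unadjusted p below 0.05, and DESeq2 called 0). The nearest were Rpl36, Rpl38 and Rpl32, with log2 values of -0.32, -0.26 and -0.24 and adjusted p values of 0.284, 0.524 and 0.534. Without vehicle mouse 2 the count was 2. Vehicle mice varied from 30.8% to 35.3% in their share and treated mice from 31.3% to 31.6%.

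Blood T cells had a lower share in every treated mouse, at 40.9%, 41.9% and 42.2%, than in the vehicle mice, at 43.4%, 43.6% and 44.5%. Single genes did not pass the threshold: 0 of 77 changed, where 0.116% of genes rose and 0.0232% fell (54 of the 77 were lower at an unadjusted p below 0.05, and DESeq2 called 0). Their median was -0.12. Rpl10 came closest, with a log2 value of -0.22 ± 0.060 and an adjusted p of 0.111, followed by Rplp1 and Rps18 at -0.16 each. Median UMIs per cell were 6629 to 7318 in vehicle mice and 6136 to 6503.5 in treated mice, and mitochondrial UMIs 5.07% to 5.46% against 5.49% to 5.87%. The part of these in the lower share was not tested. With the mouse number as a block the count was 25, and with no filter on low counts it was 44.

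Blood CD8 T cells held 44.6% to 46.2% in vehicle mice and 42.6% to 44.2% in treated mice, with mitochondrial UMIs at 5.13% to 5.40% and 5.64% to 6.01%. None of the 77 genes changed (0 of 77, against 0% of genes higher and 0.0292% lower, with 5 at an unadjusted p below 0.05 and 0 by DESeq2). Rps2, Rpl10 and Rps18 had the smallest p, with log2 values of -0.17, -0.17 and -0.13. With the mouse number as a block, 13 of the 77 were lower.

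Splenic B cells moved the other way. Here 28 of 77 genes rose and 0 fell, where 2.60% of 8626 genes rose and 1.90% fell, and the median over the 77 was 0.11. The share of UMIs was 36.4%, 37.2% and 37.0% in vehicle mice and 38.4%, 38.4% and 37.2% in treated mice. The closest pair of mice, vehicle mouse 2 and treated mouse 4, differed by less than the spread within either arm. Rises were 18 of 46 for the large subunit and 10 of 31 for the small one.

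Rps12, a small-subunit protein, led them with 5204, 5676 and 5719 CPM in vehicle mice and 6921, 6679 and 6511 in treated mice, a log2 change of 0.35 ± 0.043 (SE, adjusted p = 1.51e-06, edgeR). All treated spleens lay above all vehicle spleens. Rpl10 went from 2444, 2550 and 2597 to 3113, 2947 and 2922, a log2 change of 0.32 ± 0.048. Rpl41, the smallest ribosomal protein, Rplp1 of the acidic stalk, and Rps2 rose by 0.27, 0.26 and 0.24 on the log2 scale. Rps29 and Rps9, which fell in several other classes, had log2 values of 0.02 and 0.04 here.

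The size of the rise depended on scaling and on the cells kept. With at most 5% mitochondrial UMIs the difference in share went from 1.17 to 5.99 percentage points and the median log2 change from 0.11 to 0.33, with 27 to 66 cells per mouse. Scaled by total UMIs alone, 20 genes rose and 1 fell, and 57 of the 77 values lay above 0, against 75 in the TMM fit (TMM sets the factors from the bulk of genes). The count was 12 to 16 without vehicle mouse 1, vehicle mouse 2, treated mouse 2 or treated mouse 3, and 46 without treated mouse 4. Macrophage markers (7 of 7 detected) summed to 713 to 906 CPM in vehicle mice and 499 to 562 in treated mice. Neutrophil markers (6 of 6 detected) summed to 403 to 8975 CPM in vehicle mice and 352 to 410 in treated mice, which overlapped. The part of these transcripts in the rise was not tested.

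Blood B cells shared the direction at a smaller size, with shares of 30.6%, 31.1% and 31.1% in vehicle mice and 31.3%, 32.0% and 32.1% in treated mice. Rplp0, the core of the stalk, rose from 2579, 2839 and 2748 CPM to 3043, 3128 and 2949 (log2 change 0.19 ± 0.042, adjusted p = 0.00578). It was the only 1 of 77 to do so, where 0.511% of genes rose, and 0 fell, where 0.336% fell. Rplp0 was not called without vehicle mouse 1 or treated mouse 3, and 2 and 4 genes rose without vehicle mouse 2 and treated mouse 2. In blood NK cells 0 of 77 changed, where 0.314% of genes rose and 0.0786% fell (5 were higher at an unadjusted p below 0.05, and DESeq2 called 0), with a median of 0.07. Rpl18, Rps26 and Rps2 had the smallest p there, with log2 values of 0.22, 0.23 and 0.21.

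Ascites B cells had lower levels under treatment. The share of UMIs was 21.9%, 22.6%, 22.4% and 22.5% in vehicle mice 1 to 4 and 20.9%, 20.7%, 20.7% and 20.9% in treated mice 1 to 4. Of 77 genes, 36 fell and 0 rose, where 4.83% of 5980 genes fell and 3.66% rose, with a median log2 change of -0.17 against 0.01 for all genes. The count was 17 of 46 for the large and 19 of 31 for the small subunit.

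Rps3a1 of the small subunit had 3264, 3436, 3224 and 3519 CPM in vehicle mice and 2607, 2769, 2858 and 2768 in treated mice, a log2 change of -0.37 ± 0.055 (SE, adjusted p = 1.98e-06, edgeR). Rpl3, which sits near the peptidyl transferase centre, had 1667, 1844, 1893 and 1808 against 1523, 1380, 1518 and 1543, a log2 change of -0.35 ± 0.064. The arms were apart for both genes. Rpl13a, Rpl8 and Rps10 fell by 0.33, 0.32 and 0.30. Rpl11, which binds MDM2 when ribosome assembly fails, fell by 0.27, and its partner Rpl5 had a value of -0.13 that did not pass.

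The kind of B cell differed between arms as well. Cells with a UMI of Bhlhe41, Zbtb32, Zcwpw1 or Cd9, genes known from B-1 cells, were 28.2% to 35.7% of ascites B cells in vehicle mice and 13.4% to 22.9% in treated mice, and plasma cell markers (5 of 5 detected) summed to 349.9 to 622 CPM against 178 to 321. A subset with an Ighd UMI and none of those 4 genes was chosen after the data were seen. In it 1 of 77 genes fell and 0 rose, where 106 of 4137 genes fell and 90 rose. The median of the 77 was -0.06, and their shares of UMIs overlapped between arms. That subset kept 53.1% to 61.1% of the B cells of vehicle mice and 56.4% to 64.6% of those of treated mice. In cells with at most 5% mitochondrial UMIs the count was also 1, where 31 of 3140 genes fell and 27 rose. That setting kept 3 treated mice in place of 4 and tested fewer genes than the 5980 of the main fit. The median of the 77 was -0.09 there, and 9 of them lay above 0. In spleen the 4 genes marked 43.7% to 43.8% and 40.9% to 47.0% of B cells. Most of these cells had Cd9, which marked 33.6% to 38.3% of B cells in vehicle mice and 35.4% to 39.8% in treated mice. Bhlhe41 marked 10.6% to 12.6% in vehicle mice and 7.66% to 9.81% in treated mice, with no overlap between arms. Its part in the splenic rise was not tested, nor was whether B-1 cells are counted in spleen by the 4 genes. In the subset without them 14 of 77 genes rose, where 134 of 6222 genes rose.

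**Figure D3:**
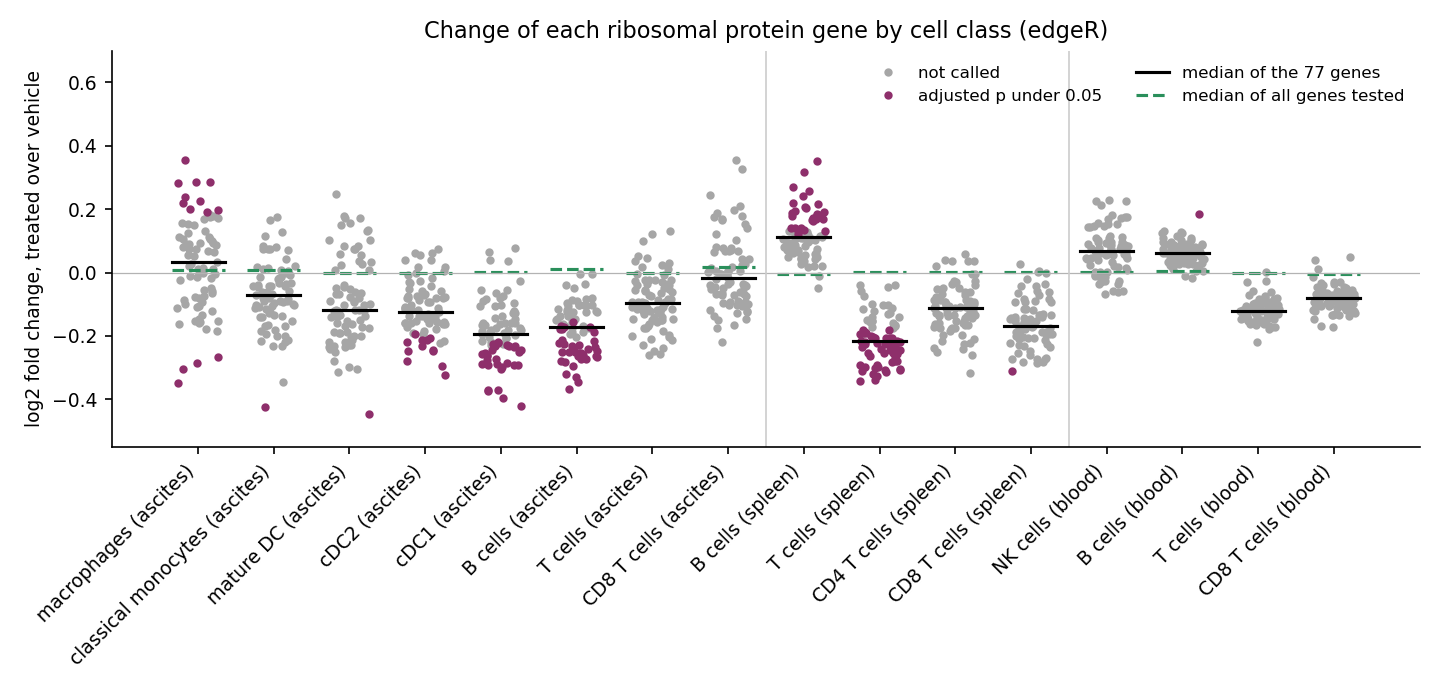
Log2 fold change of each of the 77 genes (points) between treated and vehicle mice in each class, with the median of the 77 genes (black) and of all genes tested (green dashes), and genes with an adjusted p under 0.05 in purple. The genes lie mostly below 0 in ascites B cells, T cells, classical monocytes, cDC1, cDC2 and mature dendritic cells. The same holds in splenic and blood T cells. They lie mostly above 0 in splenic and blood B cells and NK cells, and on both sides in macrophages and ascites CD8 T cells.

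Conventional dendritic cells of ascites also had lower values. In cDC1, which cross-present antigen to CD8 T cells, 30 of 77 genes fell and 0 rose, where 8.89% of 6963 genes fell and 8.14% rose, and the median was -0.19. The share of UMIs was 23.1%, 22.0%, 24.4% and 20.6% in vehicle mice and between 19.5% and 20.4% in the 4 treated mice. Vehicle mouse 4 lay close to the treated mice, and no mouse overlapped. The small subunit gave 18 of 31 and the large 12 of 46.

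Rps9, a small-subunit protein, had 5451, 5272, 5161 and 4698 CPM in vehicle cDC1 and 4096, 3949, 4051 and 3701 in treated cDC1, a log2 change of -0.42 ± 0.076 (SE, adjusted p = 6.39e-05, edgeR). Rps29, a small zinc-binding subunit, had 8515, 8336, 8641 and 7607 against 6619, 6581, 6493 and 6594, a change of -0.37 ± 0.074. No mouse of one arm reached the other in either gene. Rps28, Rps27 and Rpsa fell by 0.40, 0.37 and 0.37. The count rested on few mice: it was 11, 17 and 57 without vehicle mouse 1, 3 and 4, 14, 16 and 16 without treated mouse 2, 3 and 4, and 7 with at least 50 cells per mouse.

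In cDC2, which present antigen mainly to CD4 T cells, 12 of 77 genes fell and 0 rose, where 6.06% of genes fell and 4.51% rose, with a median of -0.12. Rps9 had 5728, 5726, 5468 and 5035 CPM in vehicle mice and 5075, 3970, 4518 and 4460 in treated mice, so that vehicle mouse 4 and treated mouse 1 overlapped. Its log2 change was -0.32 ± 0.071 (adjusted p = 0.00247). Rpl36a, Rps29, Rpl3 and Rps14 fell by 0.30, 0.28, 0.25 and 0.25. The count was 2 to 6 without any of vehicle mice 1 to 3 or treated mice 2 to 4, and 27 without vehicle mouse 4. T cell markers (7 of 7 detected) summed to 3.63 to 6.46 CPM in vehicle cDC2 and 6.71 to 25.5 in treated cDC2, and their part in the result was not tested.

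Mature dendritic cells, the migratory state marked by Ccr7, had 1 gene of 77 lower, where 4.08% of genes fell, and 0 higher, where 4.27% rose. This was Rps29, with 7090, 8270 and 7593 CPM in vehicle mice 1 to 3 and 5681, 5775, 5811 and 5380 in treated mice, a log2 change of -0.45 ± 0.12 (adjusted p = 0.0147). The call was lost without vehicle mouse 2, vehicle mouse 3 or treated mouse 2. The class held 20 to 23 cells per vehicle mouse. Median UMIs per cell were 11100 to 12428 in vehicle mice and 12573.5 to 13409 in treated mice, and T cell markers (6 of 7 detected, Themis at 0) summed to 13.9 to 18.8 and 5.24 to 8.89 CPM. Their part in the result was not tested.

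In ascites macrophages single genes changed in both directions, while the share of UMIs overlapped between arms, at 12.3% ± 0.25 in vehicle mice and 12.4% ± 0.39 in treated mice (SD, n = 4 each). Of 77 genes, 10 rose and 4 fell, where 10.2% of 9702 genes rose and 10.5% fell. In this fit the counts are near those of other genes or below. The median was 0.03. Large-subunit genes made up 8 of the rises and 2 of the falls.

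Rpl27, which lies near the exit tunnel, rose from 1105, 1096, 1177 and 1008 CPM to 1386, 1433, 1330 and 1390, a log2 change of 0.36 ± 0.068 (SE, adjusted p = 0.00173, edgeR). Rpl38, Rpl23a and Rpl18 rose by 0.29, 0.29 and 0.28, and Rpl11 by 0.22. Rps9 fell from 2356, 2440, 2346 and 2449 to 2068, 1709, 1995 and 1655, a change of -0.35 ± 0.081 (adjusted p = 0.00651). Rps4x, Rpl3 and Rpl30 fell by 0.30, 0.29 and 0.27.

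Depth and marker levels differed between the arms of this class. Median UMIs per cell were 16042 to 17450 in vehicle mice and 11262 to 14882 in treated mice, and the 7 macrophage markers (7 of 7 detected) summed to 26443 to 33057 CPM against 14745 to 20405. Gm42418 and Gm26917 took 10.2% ± 0.56 against 12.6% ± 1.5 of UMIs. With at most 5% mitochondrial UMIs, 22 of 77 genes rose and 2 fell, where 795 of 8551 genes rose and 801 fell. In that setting the rises were more frequent than among other genes. In the main setting 7, 7 and 8 changed without vehicle mouse 1, vehicle mouse 2 or treated mouse 3.

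Classical monocytes had lower Rps9 alone, 1 of 77 genes, where 2.94% of genes fell, and 0 rose, where 2.98% rose. It had 4349, 4466, 4574 and 4065 CPM in vehicle mice and 3289, 3012, 3153 and 3365 in treated mice, with no overlap and a log2 change of -0.42 ± 0.093 (adjusted p = 0.00549). The median over the 77 was -0.07. Without treated mouse 4 the count was 2, and with HTODemux hashtag calls it was 0.

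Ascites T cells gave 0 of 77, where 0.518% of genes rose and 0.326% fell, and DESeq2 called 0. At an unadjusted p below 0.05, 8 of the 77 were lower, where 504 of 5216 genes passed in either direction. Their share was 24.9%, 24.1%, 24.6% and 25.5% in vehicle mice and 22.6%, 22.1%, 22.8% and 26.4% in treated mice, where treated mouse 4 stood above all others. Without it 19 genes fell. It also had 255 T cells, against 73 to 94 in each of the other treated mice and 36 to 196 in the vehicle mice. Rps28, Rps29 and Rpl8 had the smallest p, with log2 values of -0.26, -0.26 and -0.24. In ascites CD8 T cells 0 of 77 changed, where 0.0411% of genes rose and 0.164% fell, and DESeq2 called 0. At an unadjusted p below 0.05 there were 1 of the 77 and 228 of 2434 genes. Rps2, Rpl10 and Rps29 had log2 values of 0.36, 0.33 and -0.22.

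**Figure D4:**
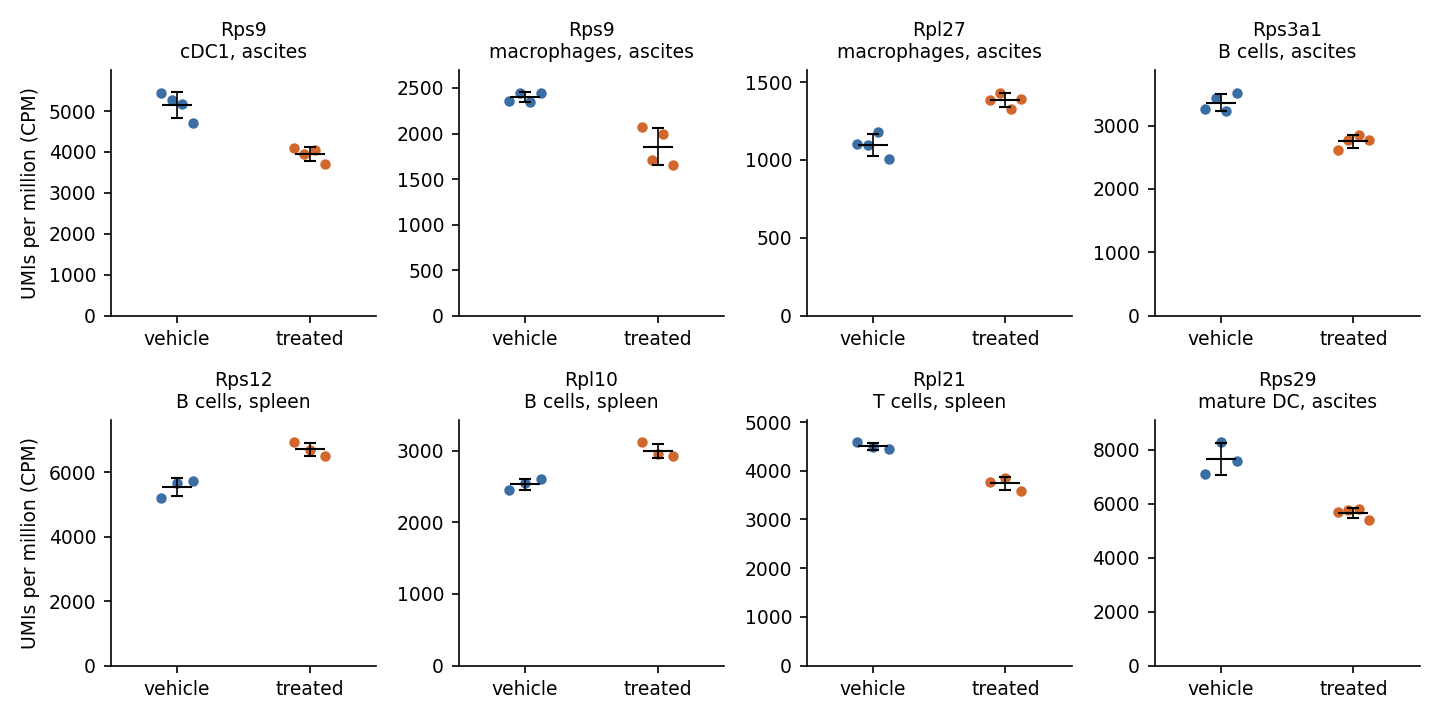
CPM (y axis, from 0) of 7 genes in the classes where the results turn on them, for each vehicle (blue) and treated (orange) mouse, with mean and SD. Rps9, Rps3a1, Rpl21 and Rps29 were lower in treated mice in the panels shown, and Rpl27, Rps12 and Rpl10 were higher, with no overlap between arms.

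Among the ribosomal protein genes, Rps9 fell in the most classes, 6 of 16: ascites B cells, macrophages, classical monocytes, cDC1 and cDC2, and splenic T cells. Rps29 fell in 5 classes and rose in 0. Rpl3, Rpl36a, Rps10, Rps14 and Rps4x fell in 4 each and rose in 0. How many other genes fell in as many classes is not given, so these counts cannot be set against other genes. The 16 classes also overlap, since the T cell subsets lie within all T cells. Rps9 lies at chr7:3703993-3706897 and Rps29 at chr12:69157722-69159186 (GRCm38, GENCODE). Rpl13 rose in macrophages and splenic B cells (log2 change 0.20 and 0.18) and fell in ascites B cells and splenic T cells (-0.18 and -0.26).

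The stalk, which recruits translation factors, is built from Rplp0, Rplp1 and Rplp2. Rplp0 fell in ascites B cells, cDC1, cDC2 and splenic T cells, by 0.26, 0.29, 0.23 and 0.22, and rose in blood B cells. Rplp1 fell by 0.18, 0.30 and 0.18 in ascites B cells, cDC1 and splenic T cells and rose by 0.26 in splenic B cells, and Rplp2 fell by 0.23 in cDC1 and 0.24 in splenic T cells. Rps27a, made as a fusion with ubiquitin, fell by 0.21 in ascites B cells and 0.23 in splenic T cells. Rps6 fell in ascites B cells, cDC1 and splenic T cells, and Rpsa fell in the same 3 classes and rose by 0.17 in splenic B cells. Rpl5 fell only in splenic T cells among the 16 classes, by 0.19.

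The treatment effect was then compared between tissues, taking the same arm and number as 1 mouse, which the hashtag notes do not state outright. In B cells it was lower in ascites than in spleen for 64 of 77 genes and higher for 0, where 2.47% of 8575 genes were lower and 0.781% higher, with 3 mice in each arm. The median difference was -0.32 on the log2 scale against -0.03 for all genes. Rps12 differed most, by -0.48 ± 0.065 (SE, adjusted p = 9.13e-08, edgeR), and its ascites values of 3365, 3962, 3963 and 4283 CPM in vehicle mice and 3542, 3783, 3538 and 3694 in treated mice overlapped. Rpl3 and Rpsa each differed by -0.46.

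The kind of ascites B cell differed between arms, as given above. With the marker-defined subset of B cells in both tissues 0 of 77 genes were called, at a median of -0.26. At an unadjusted p below 0.05, 39 of the 77 were lower, where 536 of 6428 genes passed in either direction. Scaling by total UMIs moved the median of all genes to 0.14 and that of the 77 genes to -0.14, and left 14 called. HTODemux hashtag calls left 38.

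Between spleen and blood, which share a library, 5 of 77 genes had a higher effect in splenic B cells, where 0.561% of genes were higher, and 0 had a lower one, where 0.641% were lower. They were Rpl10 (0.28 ± 0.060, adjusted p = 0.00121), Rps12 (0.24 ± 0.051), Rpl41 (0.18), Rps21 (0.18) and Rplp1 (0.17). Blood B cells of vehicle mice had 2328, 2449 and 2474 CPM of Rpl10 and those of treated mice 2365, 2473 and 2435. The count was 2 without the mouse block and 1 with HTODemux hashtag calls.

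In T cells, Rpl21 and Rpl14, both of the large subunit, had a lower effect in spleen than in blood, 2 of 77, where 0.129% of genes were lower, and 0 had a higher one, where 0.116% were higher. Rpl21 differed by -0.29 ± 0.056 (adjusted p = 0.000387) and Rpl14 by -0.25 ± 0.062. The count was 0 without the mouse block and 0 with HTODemux hashtag calls. In blood T cells Rpl21 stood at 4490, 4716 and 4742 CPM in vehicle mice and 4604, 4711 and 4815 in treated mice, which overlapped. In CD8 T cells Rpl21 was 1 of 77 with a lower effect (-0.35 ± 0.083, adjusted p = 0.0417), where 0.075% of genes were lower, and 0 had a higher one, where 0.0562% were higher. Without the mouse block this count was 0. Between ascites and spleen, 0 of 77 differed in T cells, where 0.0872% of genes were higher and 0.0436% lower. At an unadjusted p below 0.05 there were 12 of the 77, all with a higher effect in ascites, and 502 of 9171 genes in either direction. The median of the 77 was 0.18, against 0.03 for all genes. In CD8 T cells, with 2 mice per arm, 0 of 77 differed, where 0.018% of genes were higher and 0.0719% lower. There 61 of the 77, all with a higher effect in ascites, and 364 of 5567 genes in either direction had an unadjusted p below 0.05. The median of the 77 was 0.33, against 0.05 for all genes.

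Among subunits whose names fall outside the symbol rule, Fau and Rack1 were called in some classes. Fau, which encodes a ubiquitin-like fusion of a small-subunit protein, fell in ascites B cells, cDC1, cDC2 and splenic T cells, by 0.20, 0.36, 0.29 and 0.27 on the log2 scale. Rack1, the scaffold protein of the small subunit, rose by 0.17 in splenic B cells and fell by 0.19 in splenic T cells.

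Paralogs outside the rule were read from a list of 8. Rps27l, a paralog of Rps27 that p53 is known to induce, rose in 4 classes. It went from 264 ± 18.3 to 574 ± 22.2 CPM in cDC1 (SD, n = 4 each), a log2 change of 1.09 ± 0.086 (adjusted p = 4.97e-13, edgeR), in the class where Rps27 fell by 0.37. In cDC2, classical monocytes and macrophages it rose by 0.68, 0.55 and 0.54. Rpl22l1, the paralog of Rpl22, fell by 0.38 in cDC2 and 0.78 in mature dendritic cells and rose by 0.31 in splenic B cells.

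Elongation factors and other messages with a TOP motif formed a list of 17. In cDC1 the list gave 3 higher and 3 lower, where 8.14% and 8.89% of all genes were called: Eef1b2 and Tpt1 fell by 0.42 and 0.29, and Npm1, which ferries pre-ribosomes, and Eef1g rose by 0.28 and 0.26. Splenic T cells gave 0 higher and 3 lower, against 1.02% and 1.58% of all genes, with Eef1a1, the main elongation factor, and Gas5 down by 0.20 and 0.27. Splenic B cells gave 2 higher, Eef1g by 0.33 and Tpt1 by 0.17, and 0 lower, against 2.60% and 1.90% of all genes.

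Of 37 genes of ribosome assembly, 8 fell and 0 rose in splenic B cells, where 1.90% of all genes fell and 2.60% rose, with a median of -0.31. They included Gnl3, a nucleolar GTPase, with 154 ± 13.1 CPM in vehicle mice and 87.5 ± 5.38 in treated mice (SD, n = 3 each; log2 change -0.73 ± 0.095, adjusted p = 2.71e-06). Tsr1 and Nolc1 fell by 0.73 and 0.59, and Wdr43 by 0.48. In splenic T cells 2 of 36 tested fell, Fbl by 0.42 and Wdr43 by 0.46, where 1.58% of all genes fell. In macrophages 5 of 37 rose, among them Fbl by 0.39, and 1, Wdr43, fell by 0.52, which does not stand out from the 10.2% of all genes that rose and 10.5% that fell.

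Proteins of the mitochondrial ribosome, a list of 78, rose in 24 cases in macrophages and fell in 0, where 10.2% of all genes rose and 10.5% fell, with a median of 0.24. Mrpl21 went from 40.2 ± 7.20 to 73.1 ± 10.1 CPM (log2 change 0.87 ± 0.13, adjusted p = 0.000351), and Mrps6 and Mrpl33 rose by 0.90 and 0.52. In cDC1 5 of 74 tested rose and 0 fell, among them Mrpl13 by 0.84, a count no higher than the 8.14% of all genes that rose there. Of 13 growth-control genes tested in macrophages, 2 rose and 1 fell, where 10.2% of all genes rose and 10.5% fell. Tsc1 and Rptor rose by 1.01 and 0.58, and Myc fell by 1.95, from 36.6 ± 12.9 to 9.08 ± 1.1 CPM. Elsewhere 1 gene rose and 0 fell in cDC1 (Rheb, 0.36, of 12 tested), mature dendritic cells (Rheb, 0.92, of 7) and cDC2 (Tsc1, 1.17, of 9). In these classes 8.14%, 4.27% and 4.51% of all genes rose. The differences in depth and marker levels between macrophage arms apply to the macrophage values of these lists too.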

How the data were processed

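The authors deposited UMI counts per gene and hashtag, made with Cell Ranger 6.1.1 on mm10 per the submitters' processing notes; the deposited hashtag notes give arm, mouse and tissue. Kept barcodes had 200 genes or more, 500 UMIs or more and no more than 10% mitochondrial UMIs, which left 11112 barcodes of ascites and 11513 of the other library. A cell was assigned where its top hashtag held at least 80% of at least 20 hashtag UMIs. This rule was preferred to HTODemux (Seurat 5.3.0), which left 4368 and 5514 cells with medians of 5575 and 5614.5 UMIs against 8310 and 5987. Classes required several detected markers of 1 lineage. Cells meeting several lineages (313 and 391) were left out as likely doublets, and 846 and 234 met none. The gate thresholds, the C1q rule that divides macrophages (at least 20 C1q UMIs per 10000) from other myeloid cells (under 10), and the class of all T cells were set after the data were seen. A class is named by its gate and holds all cells that pass it.

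UMIs were summed per mouse and class for mice with at least 20 cells and tested where each arm had 2 such mice, with edgeR 4.0.16 in R 4.3.3 (robust quasi-likelihood F test, TMM, filterByExpr, Benjamini-Hochberg over all genes tested). Standard errors are the log2 change over the root of F. The tissue by treatment term, with mice as blocks, tested differences between tissues. DESeq2 1.42.0 gave alternatives. The edgeR step was tested on simulated counts. P-values measure the spread between mice, and both arms of a tissue were in 1 library. The share of UMIs has no test.

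Members, gene lists and tests were chosen with earlier results of these data known. Named genes are, per class, the 5 largest rises and falls among called members of mean logCPM at least 4, or the 3 of smallest p where none was called. Rpsa, Rplp0, Rplp1, Rplp2, Rps6, Rpl5, Rpl11, Rps27a, the highest and lowest members by level, members called in opposite directions and up to 4 called genes per other list are added. Others, such as those in the composition of the pool, and Rpl14, were chosen after their values were seen. Reads of near-identical processed copies may be split or lost in the deposited counts. Results of some genes are not reported here. Coordinates are from GENCODE M21 (GRCm38) and sequences from RefSeq.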

Additional observations from a re-analysis of the deposited data

Results flagged for a closer look

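Within 13 groups of 4 ascites mice, the share of UMIs from ribosomal protein genes had 1 mouse far from the others. In treated ascites T cells the highest mouse, treated mouse 4, stood at 26.4%, while the other treated mice were at 22.1% to 22.8%. About 1 in 20 groups would be marked by chance. This mouse gave 255 of the treated T cells, against 73 to 94 in each of the others.

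The treatment effect differed between tissues in 4 of the comparisons of the report, each by an edgeR interaction term. In B cells of ascites against spleen, 64 of 77 ribosomal protein genes differed, all lower in ascites, where 2.47% of all genes were lower. This count was 38 with HTODemux hashtag calls, 14 with scaling by total UMIs and 0 in the marker-defined subset of B cells. In spleen against blood, 5 differed in B cells (higher in spleen), 2 in T cells (Rpl21 and Rpl14, lower in spleen) and 1 in CD8 T cells (Rpl21, lower in spleen). In the same directions 0.561%, 0.129% and 0.075% of all genes differed. Without the mouse block the 3 counts of spleen against blood were 2, 0 and 0, and with HTODemux hashtag calls 1, 0 and 1.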

How the results depend on the processing

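Depth limits the small classes: mature dendritic cells and cDC2 rested on 20 to 57 cells per mouse, and a low count of called genes there does not show equal levels. Over all alternatives, values of called named genes kept their direction but lost their call in 373 cases, and 1 changed sign: Rplp1 in ascites B cells was 0.041 in conventional B cells only (Ighd positive, without the 4 B-1 genes). The subset and the scaling by total UMIs were chosen after the data were seen. Where no value bears on it, the cause was not tested.

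With HTODemux calls the number of ribosomal protein genes called was 6 in macrophages, 0 in classical monocytes, 4 in cDC2, 18 in splenic B cells, 27 in splenic CD8 T cells and 4 in blood B cells. The tissue difference gave 38 (ascites against spleen, B cells), and 1 and 0 (spleen against blood, B and T cells). With at most 5% mitochondrial UMIs there were 1 in ascites B cells, 24 in macrophages, 0 in splenic CD8 T cells and 0 in blood B cells. Share differences, treated minus vehicle in percentage points, were then -0.976 in ascites B cells, 0.735 in macrophages, 5.99 in splenic B cells, -4.78 in splenic T cells and -0.906 in blood T cells. As a mean over cells they were -0.934 in ascites B cells, -0.353 in macrophages and -2.96 in splenic T cells. Conventional B cells only gave 1 in ascites, 14 in spleen and 0 in blood, 0 and 2 for the tissue differences, and a share difference of -0.723 in ascites.

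With at least 50 cells per mouse, cDC1 gave 7. With no filter on low counts there were 9 in macrophages, 0 in mature dendritic cells, 0 in splenic CD8 T cells and 44 in blood T cells. DESeq2's Wald test gave 20 in ascites B cells, 2 in cDC2, 6 in splenic CD8 T cells and 3 in blood B cells. DESeq2 size factors gave 1 for CD8 T cells of ascites against spleen and 5 for T cells of spleen against blood. Scaling without the ribosomal protein genes gave 0 in splenic CD8 T cells. Total UMI scaling gave 2 in classical monocytes, 6 in cDC2, 8 in splenic CD8 T cells, 14 for B cells of ascites against spleen, and 3 and 5 for B and T cells of spleen against blood.

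Mouse numbers were tested as a pairing of the arms. Same-numbered mice had correlations of -0.286 to 0.261, so they were not taken as pairs. With the replicate block the counts were 1 in ascites T cells, 9 in macrophages, 2 in mature dendritic cells, 0 in splenic CD8 T cells, 0 in blood B cells, 25 in blood T cells and 13 in blood CD8 T cells. Without the mouse block the tissue difference gave 6 for CD8 T cells of ascites against spleen, and 2, 0 and 0 for B, T and CD8 T cells of spleen against blood.

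Leaving out 1 mouse at a time gave 28 to 47 genes in ascites B cells, 0 to 19 in ascites T cells, 7 to 15 in macrophages, 1 to 2 in classical monocytes, 11 to 57 in cDC1, 2 to 27 in cDC2 and 0 to 1 in mature dendritic cells. It gave 12 to 46 in splenic B cells, 29 to 57 in splenic T cells, 0 to 2 in CD4 and 0 to 49 in CD8 splenic T cells, and 0 to 4 in blood B cells. The share difference ranged from -1.72 to -1.48 in ascites B cells, -2.29 to -0.851 in T cells, -1.86 to 0.858 in CD8 T cells and -0.0563 to 0.221 in macrophages. It ranged from -1.53 to -0.728 in classical monocytes, -3.20 to -1.96 in cDC1, -1.71 to -1.18 in cDC2 and -1.98 to -0.375 in mature dendritic cells. In spleen it was 0.935 to 1.57 in B cells, -4.03 to -3.33 in T cells, -3.20 to -0.923 in CD4 and -3.71 to -2.26 in CD8 T cells. In blood it was 0.675 to 1.07 in B cells, -2.46 to -1.79 in T cells, -1.82 to -0.982 in CD8 T cells and 0.469 to 1.68 in NK cells.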
